A study of Cunninghamia lanceolata with 18 samples.

Results

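The carotenoid cleavage dioxygenase homologs CCD (Cula0015579) and CCD4 (Cula0029135) and the DWARF27 homolog D27 (Cula0004245) are the genes that the study listed under strigolactone biosynthesis in Chinese fir, a conifer grown for timber. They are 3 of the 46723 genes in the count table, and all 3 passed the low-count filter in every fit. The study found them with DESeq2 as differing between the clones in these same libraries, so the values of C1 against C11 below are a description and support nothing. The study took the names from related genes of other species.

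Strigolactones are plant hormones made from carotenoids, and they are best known for holding back the outgrowth of lateral buds and for signalling from roots. In Arabidopsis and rice, D27 isomerises β-carotene in the plastid, and the dioxygenases CCD7 and CCD8 then cut the product and turn it into carlactone, the precursor of the active hormones. The name CCD does not say which dioxygenase Cula0015579 is closest to. CCD4 enzymes are known in Arabidopsis and in flowers for breaking down carotenoids and do not belong to the core strigolactone route there. No sequence of these genes was in the sources used here, so the names were not checked.

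RNA was sequenced from 3 tissues of 2 clones, of which C1 grows longer internodes than C11. Apical buds (AB), phloem of the upper stem beside them (UP) and lateral buds (LB) were taken, each with 3 biological replicates per clone, and roots were not. This gave 18 libraries. Each clone is 1 genotype, no treatment was given, and tissues were collected when lateral buds appeared. The clones were collected on different days, so clone and day cannot be told apart. No label says that a replicate number marks 1 tree across tissues.

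The libraries held 24766529 to 32005160 counts. Levels are given as CPM, the usual counts scaled to library total, with TMM factors over all 18 libraries, and as they are not divided by gene length they are compared between libraries and not between genes. The C11 libraries differed more from each other than the C1 libraries, with a biological coefficient of variation of 0.72 against 0.381 over the 3 tissues. In C11, replicate 3 was the highest library for 36.5% of 27174 genes in AB, for 39.8% in UP and for 38.1% in LB. The largest such shares in C1 were 34.4% in AB (replicate 1), 36.7% in UP (replicate 3) and 34.5% in LB (replicate 1). No phloem marker was named in the sources, so the label UP was checked only against 20 surface lipid and related genes that the study had chosen on these libraries, such as KCS1, which elongates very-long-chain fatty acids. The study picked these 20 for their many links within a group of co-expressed genes, so they are not 20 separate checks. All 20 had lower means in UP than in AB and LB in both clones, and their summed level was 201 to 1091 CPM in UP and 1196 to 4516 CPM in the buds. Whether other cell types had a part in the results below was not tested, and in bulk tissue fewer cells of a type and less RNA per cell cannot be told apart.

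CCD was lowest in the apical bud of C1, where it had 2.17, 2.31 and 2.78 CPM in replicates 1, 2 and 3, from 62, 72 and 71 counts. The UP tissues of C1 had 24.8, 38.7 and 10.5 CPM in the same order. The LB tissues of C1 had 15.0, 2.92 and 3.69 CPM. In C1, UP thus lay above AB without overlap, whereas UP and LB overlapped because LB replicate 1 stood above the other LB libraries.

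In C11, CCD had 5.04, 3.07 and 44.4 CPM in AB. It had 42.6, 21.7 and 57.4 CPM in UP, and 63.7, 1.94 and 145 CPM in LB. The lowest and the highest of all 18 libraries were both from the lateral bud of C11, and they differed 75.1-fold. Replicate 3 was the highest C11 library for CCD in each tissue and replicate 2 the lowest.

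D27, the isomerase thought to act ahead of the dioxygenases, had a similar pattern. In C1 it had 2.38, 1.61 and 0.783 CPM in AB, 11.8, 13.6 and 5.06 CPM in UP and 8.08, 2.20 and 1.99 CPM in LB. In C11 it had 3.50, 1.48 and 16.8 CPM in AB and 30.3, 2.17 and 63.3 CPM in LB. In the UP tissues of C11 the 3 libraries lay close together, at 18.7, 14.9 and 16.6 CPM. So the C11 replicates were far apart in the buds and near each other in the phloem.

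CCD4 had another pattern. In C1 it had 17.4, 6.32 and 5.44 CPM in AB, 6.39, 2.88 and 2.38 CPM in UP and 8.01, 9.55 and 8.24 CPM in LB, so that UP had the lowest mean of this clone, with some overlap with AB. In C11 it had 22.2, 6.37 and 24.97 CPM in AB and 16.2, 8.47 and 32.8 CPM in LB. The UP libraries of C11 had 3.08, 8.43 and 108 CPM, and the C11 mean in UP was carried by replicate 3, from 2943 counts.

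**Figure D1:**
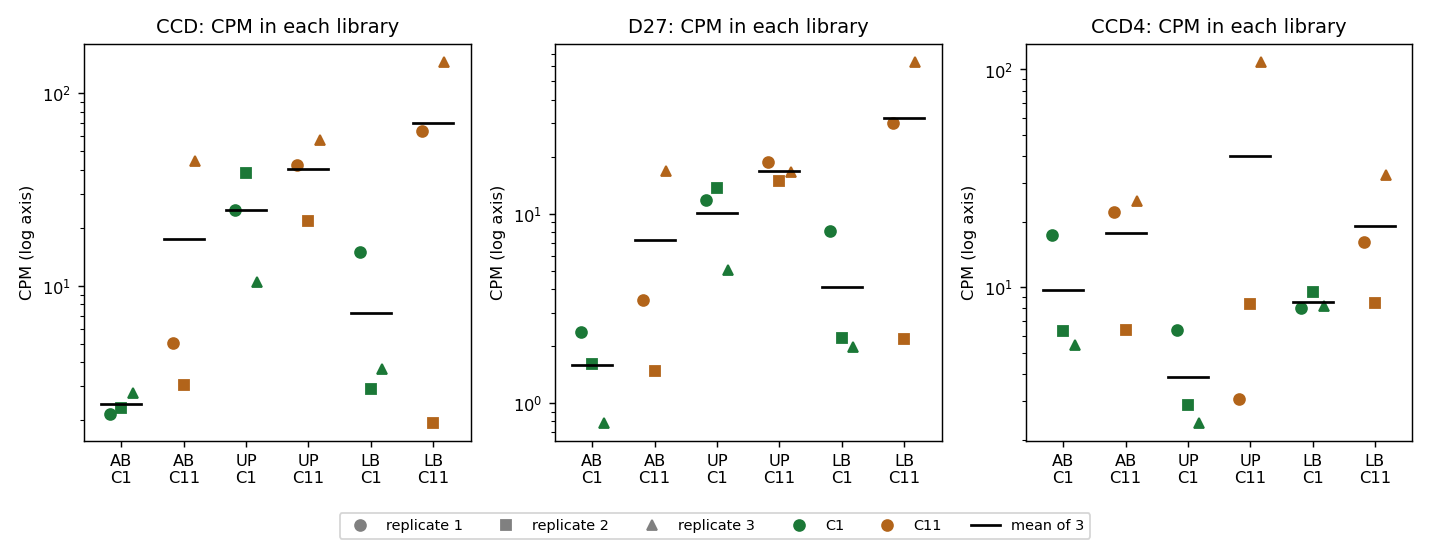
CPM (log axis) of CCD, D27 and CCD4 in each of the 18 libraries, by tissue and clone, with the marker shape giving the replicate number and a bar at the mean of the 3 libraries. CCD spans 1.94 to 145 CPM within the lateral bud of C11, D27 lies between 14.9 and 18.7 CPM in the UP tissues of C11, and CCD4 has its highest value, 108 CPM, in UP replicate 3 of C11.

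Ordered by mean level, CCD ran from LB of C11 at 70.4 ± 72.0 CPM (SD, n = 3) through UP of C11 at 40.6 ± 17.96, UP of C1 at 24.7 ± 14.1, AB of C11 at 17.5 ± 23.3 and LB of C1 at 7.20 ± 6.75 to AB of C1 at 2.42 ± 0.32. Every neighbour in this order differed by less than the larger SD of the pair, and only LB and AB of C1 had ranges that did not overlap. D27 had the same order of groups, from 31.9 ± 30.6 CPM (SD, n = 3) in LB of C11 to 1.59 ± 0.799 in AB of C1. Among its neighbours, UP of C11 at 16.7 ± 1.87 CPM and UP of C1 at 10.1 ± 4.49 CPM differed by more than the SD and did not overlap. CCD4 was highest in UP of C11 at 39.9 ± 59.2 CPM (SD, n = 3) and lowest in UP of C1 at 3.88 ± 2.19 CPM. Its only neighbours beyond the SD and without overlap were LB of C1 at 8.60 ± 0.83 CPM and UP of C1.

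The differences between replicates were wide for these genes beside those of other genes. The log2(CPM + 1) values of CCD in the lateral bud of C11 spanned 5.64, and 0.357% of the 27174 genes had a span at least as wide in that group, where the median gene spanned 0.81. D27 spanned 4.34 there, with 1.49% of genes as wide. CCD4 spanned 4.74 in UP of C11, with 1.65% of genes as wide. At the other end were CCD in AB of C1, with 75.7% of genes as wide, CCD4 in LB of C1 with 73.6% and D27 in UP of C11 with 86.1%.

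The tissues of a clone were not compared in choosing the genes, so these differences were tested. The choice did use the same libraries, however. A gene picked as lower in C1 in a given tissue would tend to be low there beside the other C1 tissues. In C11 it would tend to be high there. The p-values between tissues are thus not free of the choice. A separate edgeR fit was made for the 9 libraries of each clone, and calls needed an adjusted p under 0.05 over all genes together with a change of 2-fold or more. The comparisons of 1 clone share libraries. In C1, CCD was 10.2-fold higher in UP than in AB (log2 difference 3.35, standard error 0.72, adjusted p = 0.0679 from edgeR). D27 was 6.31-fold higher (log2 difference 2.66, standard error 0.69, adjusted p = 0.0991 from edgeR). CCD4 went the other way, at a log2 difference of -1.33 (standard error 0.52, adjusted p = 0.222 from edgeR), and was lower in UP in 3 of 3 pairs of the same replicate number. None of the 3 genes was called, while 1.04% of all genes tested were called in UP against AB (255 genes, and 78 with the replicate number as a block). With 1 library of C1 left out, 0 genes were called without any 1 UP library or without LB replicate 2, 1 to 53 without LB replicate 3, AB replicate 1 or AB replicate 2, and 923 without AB replicate 3. All 3 members had an unadjusted p under 0.05, as did 19.1% of all genes tested.

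DESeq2 called CCD and D27 in UP against AB of C1 and did not call CCD4, while it called 5.97% of all genes with an adjusted p there. Its adjusted p was 2.85e-05 for CCD, within a range of 2.85e-05 to 0.490 over the alternatives, and 0.00193 for D27, within 0.00193 to 0.522. Without LB replicate 1 of C1, edgeR also called CCD, at an adjusted p = 0.0397 and with the same log2 fold change of 3.35. The values of UP and AB did not overlap for CCD and D27, as was the case for 12.2% of all genes tested in this direction.

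Between UP and LB of C1, CCD had a log2 fold change of 1.78 (standard error 0.67, edgeR's adjusted p = 0.144) and D27 one of 1.31 (standard error 0.65, edgeR's adjusted p = 0.259). CCD4 had a log2 fold change of -1.15 (standard error 0.52, edgeR's adjusted p = 0.221) and was lower in UP without overlap, as were 18.2% of all genes tested. None of the 3 was called by edgeR, against 5.19% of all genes (1268 genes, and 15 to 841 without any 1 UP or LB library). DESeq2 called 9.73% of all genes, CCD among them at an adjusted p = 0.0446, with a range of 0.0394 to 0.660 over the alternatives. LB replicate 1 lessened the differences of CCD and D27. Without that library the log2 fold change of CCD was 2.89 and edgeR's adjusted p = 0.0394, while the log2 fold change of D27 was 2.27 and its adjusted p = 0.0725.

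Between LB and AB of C1 the log2 fold changes were 1.57 for CCD (standard error 0.68), 1.34 for D27 (standard error 0.67) and -0.19 for CCD4 (standard error 0.51), with edgeR's adjusted p = 0.731, 0.750 and 0.968. The LB values of CCD lay above AB without overlap, as did those of 4.38% of all genes. The call rate was 0% in this comparison, with 1658 genes at an unadjusted p under 0.05 in edgeR and 187 called by DESeq2, none of them 1 of these 3 genes. With 1 library left out edgeR called 15 genes without AB replicate 2, 1 without LB replicate 2 and 0 without each other library. Without LB replicate 1 the log2 fold changes were 0.45 for CCD and 0.38 for D27.

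In C11 the tissues overlapped for all 3 genes in every comparison, where 12.6% of all genes did not overlap between UP and AB, 10.7% between UP and LB and 2.89% between LB and AB. In pairs of the same replicate number, UP was above AB in 3 of 3 for CCD and in 2 of 3 for D27 and CCD4. LB was above AB in 3 of 3 for D27 and in 2 of 3 for CCD and CCD4. UP was above LB in 1 of 3 for each gene. From AB to UP the log2 fold change was 1.25 (standard error 1.36) for CCD, 1.24 (standard error 1.13) for D27 and 1.20 (standard error 1.19) for CCD4, with adjusted p of at least 0.883 in edgeR. From AB to LB it was 2.04 (standard error 1.39) for CCD and 2.17 (standard error 1.16) for D27, both with edgeR's adjusted p = 1.000. Neither edgeR nor DESeq2 called any of the 3 genes in a comparison of C11 tissues. The call rate of edgeR over all genes was 0% in each of them, with 1885 genes (7.4%) at an unadjusted p under 0.05 in UP against AB, 1434 (5.63%) in UP against LB and 223 (0.875%) in LB against AB. DESeq2 called 579, 354 and 0 genes. Standard errors of the log2 differences were 1.12 to 1.39 in C11 and 0.51 to 0.72 in C1.

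These C11 values turned on replicate 3 and on the pairing. Without replicate 3 in any tissue, which was chosen after the values were seen, the log2 fold change from AB to UP was 3.00 for CCD and 2.76 for D27, and that of CCD4 turned to -1.31. Libraries of C11 with the same number deviated together in all pairs of tissues. With the replicate number as a block, CCD and D27 had log2 fold changes of 2.21 (standard errors 0.99 and 0.94) from AB to UP, with edgeR's adjusted p = 0.389 and 0.371. With the block, the difference between UP and LB turned from -0.80 to 0.25 for CCD and from -0.93 to 0.08 for D27.

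**Figure D2:**
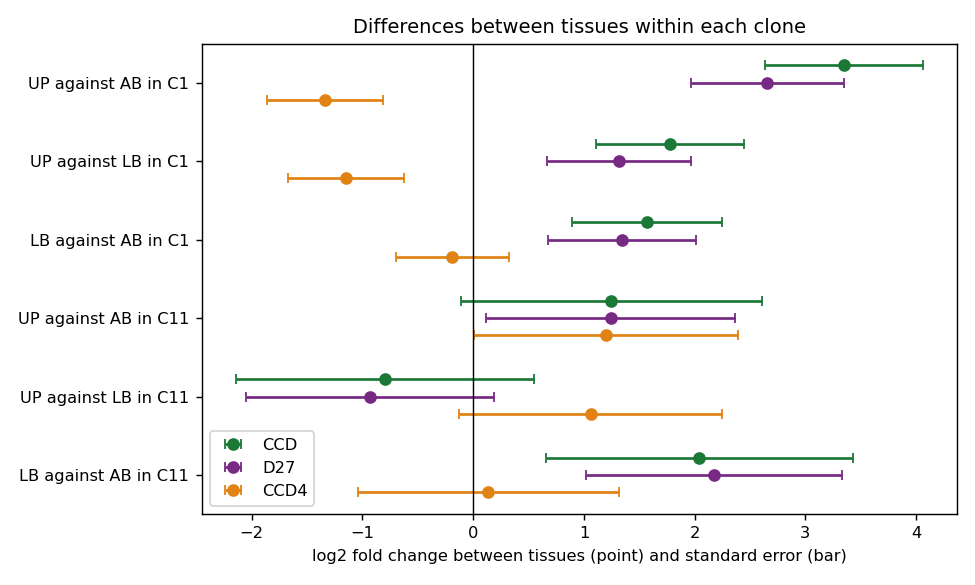
Log2 fold change between tissues (points) with its standard error (bars) from edgeR, for CCD, D27 and CCD4 within C1 and within C11. CCD and D27 have the same sign in all 6 comparisons, at 3.35 and 2.66 for UP against AB in C1, and the bars of C11 are wider than those of C1.

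Between the clones, all 9 pairs of gene and tissue had a lower mean in C1. On the log2 scale, C1 minus C11 of CCD reached -2.86 in AB (standard error 1.04), -3.28 in LB (standard error 1.42) and -0.75 in UP (standard error 0.56). D27 reached -2.19 in AB (standard error 0.96), -2.96 in LB (standard error 1.19) and -0.75 in UP (standard error 0.40). CCD4 was furthest apart in UP, at -3.38 (standard error 1.37), with -0.87 in AB (standard error 0.65) and -1.15 in LB (standard error 0.49). The clones overlapped in 7 of the 9 pairs, and did not overlap for CCD in AB and for D27 in UP. CCD in AB was thus 1 of 3 genes without overlap, beside 13.1% of all genes lower in C1 without overlap, D27 in UP was 1 of 3 beside 14.4%, and LB had 0 of 3 beside 13.7%. None of the 3 genes was called by edgeR in any tissue, and the call rate over all genes was 4.55% for AB, 3.94% for UP and 4.27% for LB (1040 genes, and 528 with the block). These rates turned on single libraries. In AB, 1093 genes were called and 85 to 552 with any 1 library left out. In UP, 951 were called, 2683 without C11 replicate 3 and 0 to 189 without any 1 of the others. In LB, 1689 were called without C11 replicate 2 and 7 to 49 without C11 replicate 1 or any 1 C1 library.

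DESeq2 was also run on the counts, and it need not give the values by which the study chose the genes. As that choice used DESeq2 on these same libraries, a low adjusted p here supports nothing. The adjusted p of DESeq2 was 0.0247 for CCD in AB, 0.0427 for CCD in LB, 0.0326 for CCD4 in UP and 0.0390 for D27 in LB. Over all genes with an adjusted p, the call rate of DESeq2 was 10.9% for AB, 12.6% for UP and 12.9% for LB. DESeq2 did not call the other pairs of gene and tissue. Their adjusted p was 0.112 for D27 in AB, 0.160 for CCD4 in LB and 0.328 to 0.527 for the rest. Without C11 replicate 3, the log2 fold change in AB was -0.71 for CCD and -0.61 for D27, and that of CCD4 in UP was -0.58. In LB it was -2.21 for CCD and -2.01 for D27, where replicate 1 of C11 was high as well and replicate 2 lay within the range of C1 for D27 and below it for CCD. A test of whether C1 minus C11 was unequal between tissues called none of the 3 genes in edgeR, with a lowest unadjusted p of 0.0949. That test used the differences by which the genes were chosen, so its outcome was partly fixed in advance.

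CCD and D27 moved together across the libraries. Over the 18 libraries their log2(CPM + 1) values had a Pearson correlation of 0.976 and a Spearman correlation of 0.907, given as a description because tissues, trees and clones are shared between points. Of the 27173 other genes, D27 ranked 2 by Pearson correlation with CCD, and CCD ranked 2 with D27. The gene ranked 1 for both was Cula0030400, which the files do not pair with a name, at 0.987 with CCD and 0.976 with D27. The 5 genes most like CCD had correlations of 0.971 to 0.987, and those most like D27 of 0.971 to 0.976.

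Within single groups the likeness was less regular. The 3 libraries had the same order for CCD and D27 in 3 of 6 groups, and in AB of C1 the order of D27 was the reverse of that of CCD. Over the 3 tissues of a clone the correlation was 0.960 in the 9 C1 libraries, with D27 at rank 57, and 0.978 in the 9 C11 libraries, at rank 25. For deviations from the means of the 6 groups it was 0.965, at rank 40. Without C11 replicate 3 it was 0.970, and D27 then ranked 4. By Spearman correlation D27 ranked 83. For each read counted on D27 there were 0.892 to 3.55 reads on CCD, with a median of 2.07, a 3.98-fold range across libraries in which CCD itself ranged 75.1-fold and D27 80.8-fold.

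The pattern was not particular to these genes. Of all genes, 165 had a correlation of at least 0.9 with CCD and 169 with D27, and 134 genes, or 81.2% of the first list and 79.3% of the second, had one with both. CCD4 stood outside it, with a correlation of 0.329 with CCD and 0.341 with D27, ranking 7225 and 7045 among all genes. In the C1 libraries alone CCD4 had correlations of -0.58 with CCD and -0.39 with D27, and in the C11 libraries alone 0.43 and 0.35. The genes most like CCD4 were Cula0019102 at 0.963 and NewGene_3258 at 0.962, neither of which the files pair with a name.

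**Figure D3:**
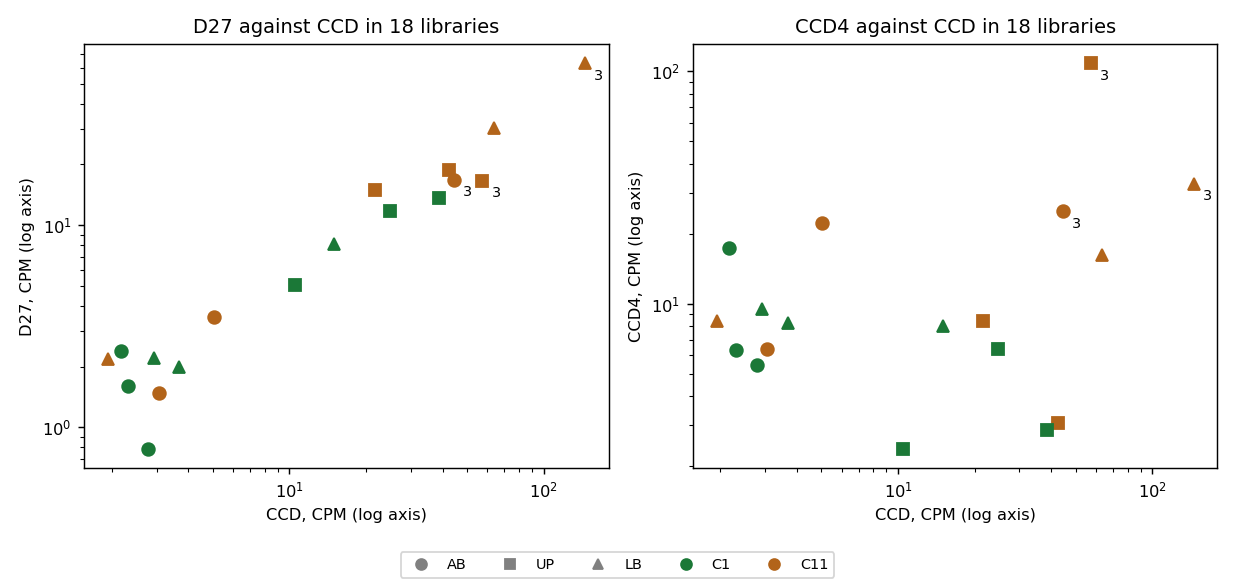
CPM (log axes) of D27 against CCD and of CCD4 against CCD in the 18 libraries, with colour giving the clone, marker shape the tissue and the digit 3 marking replicate 3 of C11. D27 is higher where CCD is higher among libraries with at least 5.04 CPM of CCD, with some scatter, and shows no such order among those below, while CCD4 is spread at all levels of CCD.

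Other genes linked to strigolactones or carotenoids were taken from the study's lists, which were chosen on the same libraries. They were 2 homologs of PDR1, a strigolactone exporter in petunia, the DAD2 homolog, named for the petunia strigolactone receptor, and 3 genes listed under carotenoid biosynthesis, the pathway that makes the substrate of D27. Which step of it these 3 belong to was not checked, so they need not lie ahead of D27. In UP against AB of C1, 0 of these 6 genes were called by edgeR, and 2 of 6 had an unadjusted p under 0.05, beside 19.1% of all genes, while DESeq2 called 2 lower in UP, beside 3.6% of all genes. The log2 fold changes of the 6 in edgeR ran from -3.26 to 0.47, with a median of -0.69. Those of the 3 members were 3.35 for CCD, 2.66 for D27 and -1.33 for CCD4. In UP against LB of C1, edgeR called 2 of 6, both lower in UP and beside 2.92% of all genes lower there.

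The 2 called were the carotenoid gene Cula0009430 and the PDR1 homolog Cula0032575. Cula0009430 had 0.188 ± 0.0739 CPM (SD, n = 3) in UP and 3.12 ± 1.17 CPM in LB of C1, a log2 fold change of -4.02 (standard error 0.69, edgeR's adjusted p = 0.0207), with 4 to 9 counts in each UP library. Cula0032575 had 3.97 ± 0.697 CPM (SD, n = 3) in UP and 8.15 ± 1.54 CPM in LB, a log2 fold change of -1.04 (standard error 0.23, edgeR's adjusted p = 0.0395). Leaving out any 1 UP or LB library of C1 ended the call on Cula0032575, with edgeR's adjusted p of 0.0773 to 0.141, and ended that on Cula0009430 for each of them other than LB replicate 1, at 0.0557 to 0.0825. Neither was called in the fit of all 18 libraries, and Cula0032575 was not called without a filter, at an adjusted p = 0.0524 from edgeR. DAD2 in C1 had 91.7 ± 39.9 CPM (SD, n = 3) in AB and 40.8 ± 10.01 CPM in UP, with a log2 difference of -1.18, standard error 0.31 and adjusted p = 0.101 from edgeR. In C11 edgeR called 0 of the 6 in any comparison of tissues, with 2, 2 and 0 at an unadjusted p under 0.05 in UP against AB, UP against LB and LB against AB, and DESeq2 called 0.

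By likeness over the 18 libraries, none of the 6 was close to CCD or D27. The PDR1 homolog Cula0032575 had a correlation of 0.531 with CCD and 0.556 with D27, and DAD2 one of -0.29 with CCD. The 3 carotenoid genes had correlations of -0.39 to -0.13 with CCD. The same PDR1 homolog was nearer to CCD4, at 0.778, and ranked 557 among all genes.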

How the data were processed

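Per the study's methods, the authors mapped reads in pairs by Hisat2 to the genome of Chinese fir. They deposited raw gene counts, as whole numbers. How reads were counted, on which strand, and where reads with several matches went is not given in the sources used here, so reads of similar dioxygenase genes could have been split between them. The members and lists were chosen with earlier results of these data known. Libraries were grouped by clone and tissue as labelled. Tissues were compared within a clone on its 9 libraries, and clones within a tissue on its 6 libraries, using the quasi-likelihood test of edgeR 4.0.16 in R 4.3.3 after filterByExpr and TMM scaling, with Benjamini-Hochberg adjustment over all genes, and DESeq2 1.42.0 as an alternative. Where replicates are not separate trees, p-values measure only the spread between samples. Likeness was the Pearson correlation of log2(CPM + 1). The genes named are the 3 members, the 6 other genes and the leading 5 by likeness, of which those given were picked afterwards. Alternatives were RLE size factors, no filter, a CPM of at least 1 in 3 libraries, other sets of libraries, a block for the replicate number, each library left out and, for likeness, pseudocounts of 0.1 and 5. Same-numbered libraries of 2 tissues deviated together at 0.243 to 0.739 in C11 (minimum 0.1) and at -0.27 to 0.49 in C1, where UP and AB passed in every pair. Figures used Python 3.11.15 and matplotlib 3.10.9.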

Additional observations from a re-analysis of the deposited data

How the results depend on the processing

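RLE size factors, both other filters, fits of 6 libraries and the fit of all 18 libraries kept the direction and the side of the threshold of all 18 differences between tissues. DESeq2 moved 3 of the 18 past the threshold, with log2 fold changes of 3.34 for CCD and 2.66 for D27 in UP against AB of C1 and 1.78 for CCD in UP against LB of C1. With the replicate number as a block no call on the 3 genes changed, and 3 uncalled values turned, to 0.077 for CCD4 in LB against AB of C1, and to 0.25 for CCD and 0.081 for D27 in UP against LB of C11. The cause was not tested. With a library left out, the log2 fold changes in C1 ran from 2.88 to 3.71 for CCD in UP against AB, from 1.31 to 2.89 for CCD in UP against LB and from -0.48 to 0.56 for CCD4 in LB against AB. In C11 they ran from -1.60 to 1.74 for CCD4 in UP against AB, and in UP against LB from -1.34 to 0.30 for CCD, from -1.73 to 1.68 for CCD4 and from -1.46 to 0.041 for D27. For CCD4 in LB against AB of C11 they ran from -0.53 to 0.43. Between the clones they ran from -3.35 to -0.71 for CCD in AB, from -2.67 to -0.61 for D27 in AB and from -3.93 to -0.58 for CCD4 in UP. The likeness of CCD and D27 moved to 0.907 by Spearman correlation and 0.960 in C1 alone. Counts of called genes changed by over 1.5 times in some fits. In UP against AB of C1 they were 255 in the main fit, 78 with the block, 1632 with DESeq2, 0 with 6 libraries and 1 with 18. In UP against LB of C1 they were 1268, and 2661, 1958 and 39 with DESeq2, 6 and 18 libraries. In LB against AB of C1 they were 0, and 1, 187 and 1 with the block, DESeq2 and 18 libraries. In C11 they were 0, and for UP against AB and LB they were 579 and 354 with DESeq2 and 99 and 61 with 18 libraries. Between clones they were 1093, 951 and 1040 in AB, UP and LB, and 3058, 3659 and 3763 with DESeq2, and 0, 0 and 528 with the block. In UP and LB they were 2054 and 1814 with 18 libraries and 524 and 663 with no filter.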
